A study of Mus musculus with 18 samples.

Results

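The genes described here encode the subunits of the proteasome and of the particles that cap it. They were taken as every gene whose single symbol in the probe annotation is Psma, Psmb, Psmc, Psmd or Psme followed by digits, without the immunoproteasome subunits Psmb8, Psmb9 and Psmb10. The rule gave 40 genes among the 19938 genes that carry a symbol of their own on the array. They hold 46 of the 35399 probe sets, and each gene is represented by its probe set with the highest mean. By role they are 8 genes of the alpha ring of the core, 8 of its beta ring, 6 ATPases and 3 other subunits of the base of the cap, 8 subunits of the lid, 3 chaperones that assemble the base, and 4 activators.

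Gene expression was measured on 18 Affymetrix arrays of natural killer (NK) cells from the spleens of ICR mice aged 6 weeks, male or female. The mice were wild type (WT, Runx3 +/+) or lacked the Runt family transcription factor Runx3 (KO, Runx3 -/-), and the labels name no Cre or promoter. Every mouse, control mice included, had received 2 injections of interleukin-15 in complex with the alpha chain of its receptor, 2 days apart, which activates NK cells and makes them divide. NK cells were enriched by negative selection, and NKp46+ cells were sorted by maturity, from CD27+CD11b- (CD27) through CD27+CD11b+ (DP) to CD27-CD11b+ (CD11b), giving 6 groups of 3 arrays. All values are log2 expression. The labels do not say whether arrays with the same replicate number, or any 2 arrays, came from separate animals, so the p-values measure only the spread between these samples.

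The proteasome degrades proteins that carry a ubiquitin chain. Its core is a barrel of stacked rings, in which the alpha rings gate the entrance and the beta rings hold the protease sites. The cap recognises the ubiquitin chain, removes it, unfolds the protein with a ring of ATPases and feeds it into the core. In lymphocytes exposed to interferon, immunoproteasome subunits replace the catalytic beta subunits and the activator encoded by Psme1 and Psme2 is induced, which changes the peptides available for presentation on MHC class I. When the proteasome is inhibited, the transcription factor encoded by Nfe2l1 raises the subunit genes together through the antioxidant response element, a short motif in their promoters.

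The promoter stretches of 5 genes are shown because the catalytic genes Psmb5 and Psmb6 and the genes Psma6, Psmc2 and Psmb4, whose levels differed between subsets, differ in whether the letters of that element occur upstream of the start. The sequences are from RefSeq (GRCm38.p6), written 5′ to 3′ on the strand of the gene and ending before its first transcribed base. Capitals mark TGACNNNGC or its variant TGAGNNNGC, on either strand.
Psmb5, chr14:54617996-54618075, minus strand, the 80 bases before the start: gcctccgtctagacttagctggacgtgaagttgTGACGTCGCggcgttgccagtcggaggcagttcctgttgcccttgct
Psmb6, chr11:70525277-70525356, plus strand, the 80 bases before the start: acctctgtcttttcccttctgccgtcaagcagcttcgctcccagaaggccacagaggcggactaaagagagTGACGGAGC
Psma6, chr12:55384042-55384141, plus strand, bases 180 to 81 before the start: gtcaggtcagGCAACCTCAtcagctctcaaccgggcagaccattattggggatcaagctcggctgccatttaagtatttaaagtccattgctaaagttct
Psmc2, chr5:21786587-21786666, plus strand, bases 160 to 81 before the start: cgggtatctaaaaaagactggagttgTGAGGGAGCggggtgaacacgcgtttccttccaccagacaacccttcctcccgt
Psmb4, chr3:94886959-94887038, minus strand, the 80 bases before the start: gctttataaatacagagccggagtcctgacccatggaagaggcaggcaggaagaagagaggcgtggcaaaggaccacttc

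The match in Psmb5 began 47 bases before the start, that in Psmb6 9 bases, and that in Psmc2 134 bases. In Psma6 the match lay on the opposite strand, 170 bases before the start. The 250 bases upstream of the Psmb4 start held neither form. A promoter was found for 33 of the 40 genes, which left Psma8, Psmb1, Psmb2, Psmb7, Psmc3, Psmd3 and Psmd7 unsearched. TGACNNNGC occurred in 5 of the 33 (15.2%, against 11.5% of 27025 genes searched the same way) and TGAGNNNGC in 8 (24.2%, against 16.3%). At least 1 of the forms occurred in 11 (33.3%, against 25.7%). CCAAT, the box bound by the factor NF-Y, occurred in 13 (39.4%, against 37.5%). The Runt motifs TGTGGT and TGCGGT, the core of the sites that Runx factors bind, occurred in 5 and 4 promoters, together in 8 (24.2%, against 20.9%). GCGCATGC, the core of the site of NRF1, a different factor from the product of Nfe2l1, occurred in 2 (6.06%, against 2.56%). These matches describe letters in the window and no factor's binding. The 40 genes lie on 16 chromosomes. Psmb5 is next to Psmb11, 1 coding gene lies between Psme1 and Psme2, and 4 lie between Psmb4 and Psmd4.

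The targeted gene was measured lower in KO than in WT in each subset, by log2 differences of 0.51 for CD27, 0.63 for DP and 0.49 for CD11b cells (limma's moderated test with Benjamini-Hochberg adjustment over all probe sets, adjusted p = 0.0416, 0.0175 and 0.0416). Runx3 signal remained in KO, at 10.73 to 11.46 over the KO arrays against 11.39 to 11.85 over the WT arrays. The highest KO value was that of CD11b array 1, and what the remaining signal reflects was not tested. The mean of 6 NK cell marker genes was 11.82 to 12.57 on every array. Over all probe sets, values ran from 3.91 to 14.96 and array medians from 6.27 to 6.35. The 3 arrays of KO replicate 3 stood apart: the median of 29 cell cycle genes deviated from the gene means by 2.40 to 2.84 on them, by -0.54 to 0.50 on the other KO arrays and by -1.16 to -0.69 on the WT arrays. The CD11b array of that replicate also had a mean of 10.68 over 6 dendritic cell and MHC class II genes, which was 5.39 to 5.50 on the WT CD11b arrays, and of 9.38 over 9 macrophage and neutrophil genes, which was 5.50 to 5.64. The dendritic cell and MHC class II mean was also raised on 3 other KO arrays, to 6.82 on CD27 array 3, 7.26 on DP array 3 and 6.49 on CD11b array 1, against 5.38 to 5.77 over all WT arrays. For some KO results below, values without the 3 arrays of KO replicate 3 are therefore given as well. Counts of genes by the sign of their difference, or by overlap of arrays, are given only with these arrays. No fit left out KO CD11b array 1 together with KO replicate 3.

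The 40 genes varied little from array to array. The pooled SD within groups had a median of 0.111 over them, from 0.0478 for Psme1 to 0.201 for Psmb6, against a median of 0.141 over all probe sets and 0.183 over the brighter 17698. Psma8, the testis form of an alpha subunit, ran from 5.05 to 5.36, and Psmb11, the catalytic subunit of the thymus proteasome, from 5.34 to 5.64. Both stayed below every array's median of all probe sets. The other 38 genes were above those medians on all 18 arrays. Psmb4 had the widest range, 1.25 between its lowest and highest array, followed by Psmb6 with 0.91, and Psmd9 had the narrowest with 0.24. In bulk RNA, fewer cells expressing a gene and less RNA per cell cannot be told apart.

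**Figure D1:**
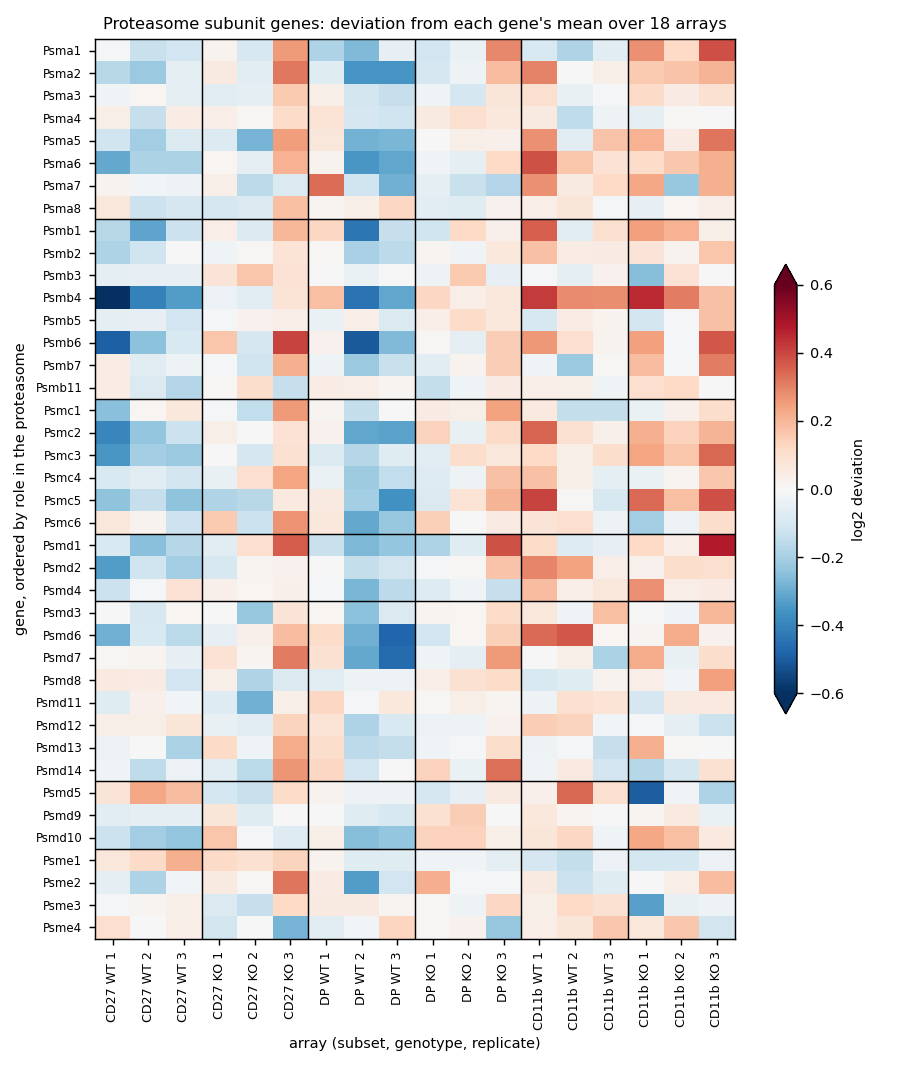
Deviation of each of the 40 proteasome subunit genes (rows, grouped by role from alpha ring to activators) from its own mean over 18 arrays (columns, ordered by subset, genotype and replicate), in log2 units, red above and blue below the mean. Most genes are blue on the WT CD27 arrays and on WT DP arrays 2 and 3, and red on the CD11b arrays and on CD27 KO array 3.

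The members often deviated together on an array. On WT DP array 2 only 4 of the 40 were above their own means over the 18 arrays, and on WT DP array 3 only 7, whereas on WT DP array 1 29 were. On the WT CD27 arrays 9 to 13 were above, and on the WT CD11b arrays 22 to 31. On the KO arrays the counts were 14 to 27 for replicates 1 and 2. On the arrays of KO replicate 3 they were 35 (CD27), 34 (DP) and 32 (CD11b). The median deviation of the 40 genes was 0.07 to 0.13 on those 3 arrays, -0.06 to 0.07 on the other KO arrays and -0.19 to 0.07 on the WT arrays, so the ranges of WT and KO overlapped.

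**Figure D2:**
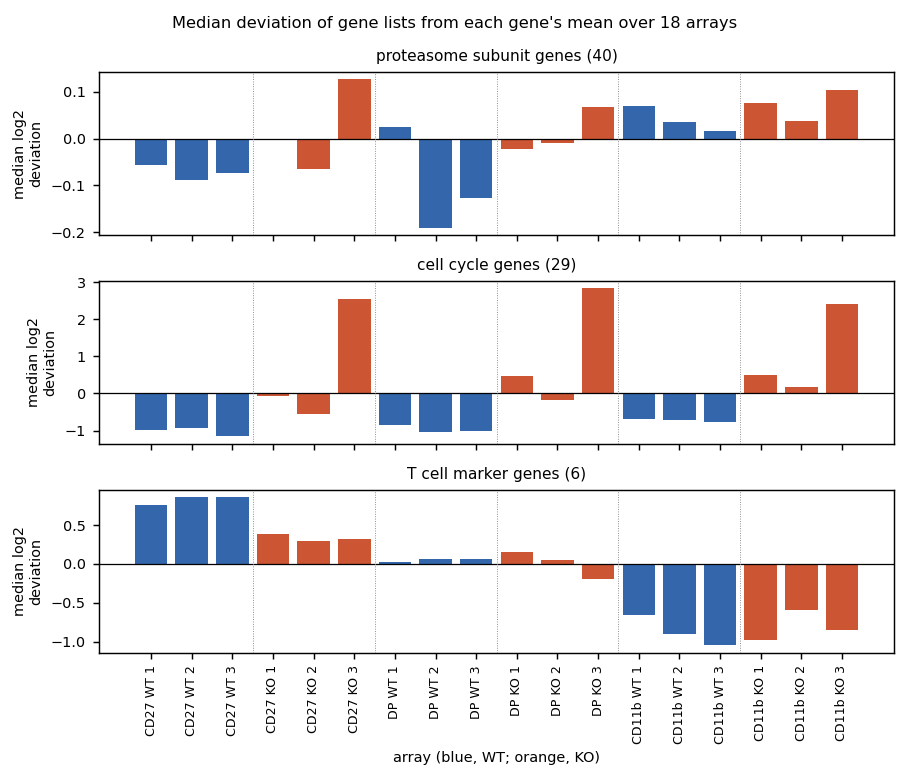
Median log2 deviation from each gene's mean over 18 arrays, one bar per array, for the 40 proteasome subunit genes, 29 cell cycle genes and 6 T cell marker genes; blue bars are WT and orange bars KO, and the vertical scales differ. The 3 arrays of KO replicate 3 stand at 2.40 to 2.84 for the cell cycle genes, and the T cell markers fall from CD27 to CD11b cells in both genotypes.

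How the subunit genes change with maturation was addressed by comparing subsets within a genotype. From CD27 to CD11b cells in WT, 5 subunit genes rose and 1 fell. The beta ring gene Psmb4 rose 1.79-fold, the alpha ring gene Psma6 1.36-fold, the ATPase genes Psmc2 and Psmc3 1.33-fold and 1.27-fold, and Psmd2, the scaffold of the base on which ubiquitin receptors dock, 1.33-fold. The activator gene Psme1 fell 1.17-fold. The other 34 genes, among them all 8 of the lid, did not pass an adjusted p of 0.05. The 6 calls are 15% of the members, against 5% of all probe sets and 8.26% of the brighter ones. In the same comparison 2.88% of all probe sets were called higher and 2.13% lower.

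Psmb4 encodes a structural beta subunit without a protease site, whose tail reaches across to the opposite ring. Its log2 values in WT were 10.17, 10.57 and 10.64 on the CD27 arrays, 11.16, 10.53 and 10.67 on the DP arrays and 11.40, 11.26 and 11.26 on the CD11b arrays. Each CD11b array was above each CD27 and DP array, and 1 DP array lay well above the other DP arrays. In KO the values were 10.94, 10.91 and 11.06 on the CD27 arrays, 11.10, 11.02 and 11.04 on the DP arrays and 11.43, 11.28 and 11.15 on the CD11b arrays. There, too, the CD11b arrays did not overlap the others, but the KO CD27 arrays all lay above the WT CD27 arrays. The WT difference between CD11b and CD27 cells was 0.84 ± 0.14 (SE, n = 3 and 3), with a 95% interval of the fold from 1.45 to 2.22 and an adjusted p of 0.00301 (limma).

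Psma6, a structural subunit of the alpha ring, had WT values of 10.55, 10.66 and 10.66 on the CD27 arrays, 10.88, 10.50 and 10.54 on the DP arrays and 11.24, 11.02 and 10.94 on the CD11b arrays. In KO they were 10.86, 10.80 and 11.06 on the CD27 arrays, 10.83, 10.79 and 10.97 on the DP arrays, and 10.97, 11.02 and 11.07 on the CD11b arrays. The WT CD11b arrays were above all WT CD27 and DP arrays, while the KO groups overlapped. The difference between CD11b and CD27 cells in WT was 0.44 ± 0.10 (SE, n = 3 and 3; fold 1.36, 95% interval 1.16 to 1.58; limma adjusted p = 0.0248).

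Psmd2 averaged 11.10 ± 0.11 (SD, n = 3) in WT CD27 cells and 11.50 ± 0.13 on the WT CD11b arrays, a difference of 0.41 with limma's adjusted p at 0.00771. The second probe set of Psmd2 gave 0.40 (adjusted p = 0.0152). Psmc3, an ATPase of the ring that unfolds substrates, averaged 8.22 ± 0.08, 8.37 ± 0.05 and 8.56 ± 0.05 (SD, n = 3) in WT CD27, DP and CD11b cells. Its arrays did not overlap between any of these subsets, and the difference from CD27 to CD11b was 0.35 (limma, adjusted p = 0.00927). Psmc2, another ATPase of that ring, averaged 8.64 ± 0.13 and 9.05 ± 0.17 (SD, n = 3) in WT CD27 and CD11b cells, a difference of 0.41 (limma, adjusted p = 0.0353).

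**Figure D3:**
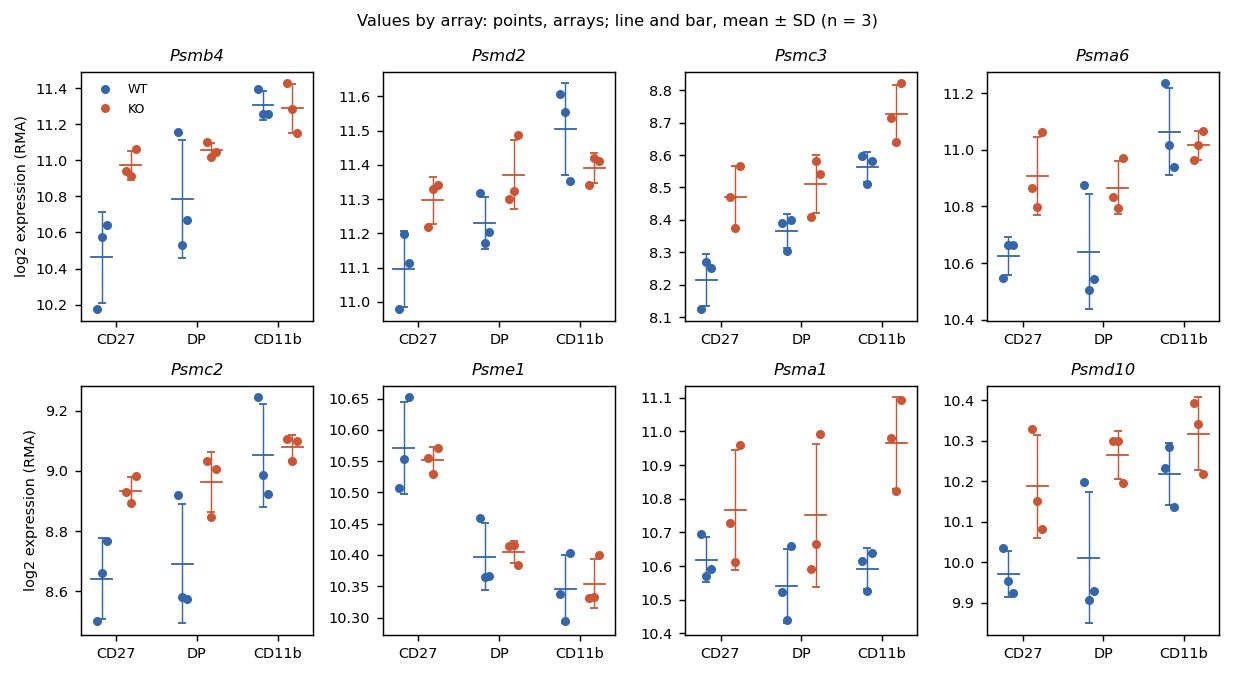
Log2 expression of the 8 subunit genes that passed in a comparison, by subset; points are arrays (blue WT, orange KO), horizontal lines are means and bars are SD over 3 arrays, and each panel has its own scale. Psmb4 rises from a mean of 10.46 on the WT CD27 arrays to 11.30 on the WT CD11b arrays, and Psme1 falls from 10.57 to 10.35.

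Of the 4 activator genes, Psme1 fell from CD27 to CD11b cells in WT and the other 3 did not pass. Psme1 encodes a subunit of the ring that opens the core without ATP, and its partner in that ring is encoded by Psme2. Psme1 was 10.51, 10.55 and 10.65 on the WT CD27 arrays, 10.46, 10.37 and 10.37 on the DP arrays and 10.34, 10.29 and 10.40 on the CD11b arrays. In KO it was 10.55, 10.53 and 10.57 on the CD27 arrays, 10.41, 10.42 and 10.38 on the DP arrays and 10.33, 10.33 and 10.40 on the CD11b arrays. In both genotypes every CD27 array was above every DP and CD11b array. The fall from CD27 to CD11b cells in WT was -0.23 ± 0.05 (SE, n = 3 and 3; limma adjusted p = 0.0223), and in KO the difference of -0.20 did not pass (adjusted p = 0.0770), though it did with the replicate number as a random block (adjusted p = 0.0333). Psme2 was 10.68, 10.55 and 10.71 on the WT CD27 arrays, 10.78, 10.39 and 10.62 on the DP arrays and 10.79, 10.60 and 10.66 on the CD11b arrays, and these groups overlapped. In KO, Psme2 was 10.79, 10.74 and 11.05 on the CD27 arrays, 10.95, 10.72 and 10.72 on the DP arrays and 10.73, 10.77 and 10.92 on the CD11b arrays, again with overlap.

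The catalytic beta subunits did not pass in any comparison of the main fit. With array weights Psmb6 passed in KO against WT, in CD27 cells and averaged, and in CD11b against CD27 cells in WT. In the averaged comparison Psmb6 also passed with a fixed replicate block, and without KO CD27 array 2 or WT DP array 1. Psmb5, the chymotrypsin-like site, was nearly flat in WT, with 10.96, 10.97 and 10.90 on the CD27 arrays, 10.98, 11.06 and 10.93 on the DP arrays and 10.92, 11.06 and 11.04 on the CD11b arrays. Its KO values were 11.01, 11.04 and 11.05 on the CD27 arrays, 11.06, 11.13 and 11.08 on the DP arrays, and 10.90, 11.002 and 11.19 on the CD11b arrays. The KO CD27 arrays lay just above the WT CD27 arrays.

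Psmb6, the caspase-like site, was 9.14, 9.38 and 9.54 on the WT CD27 arrays, 9.66, 9.13 and 9.36 on the DP arrays and 9.89, 9.73 and 9.65 on the CD11b arrays. In KO it was 9.80, 9.53 and 10.04 on the CD27 arrays, 9.64, 9.57 and 9.78 on the DP arrays, and 9.88, 9.62 and 10.002 on the CD11b arrays. The WT CD11b arrays were above the WT CD27 arrays, and the difference of 0.40 did not pass (limma, adjusted p = 0.188). Psmb7, the trypsin-like site, was 9.63, 9.52 and 9.55 on the WT CD27 arrays, 9.55, 9.36 and 9.45 on the DP arrays and 9.56, 9.36 and 9.59 on the CD11b arrays. Its KO values were 9.57, 9.46 and 9.80 on the CD27 arrays, 9.52, 9.61 and 9.73 on the DP arrays, and 9.77, 9.57 and 9.89 on the CD11b arrays. The subsets overlapped for Psmb7 in both genotypes.

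In the lid, Psmd14 encodes the enzyme that cuts the ubiquitin chain from the substrate, and Psmd11 a subunit that braces the lid against the core. Psmd14 was 11.19, 11.06 and 11.18 on the WT CD27 arrays, 11.33, 11.10 and 11.21 on the DP arrays and 11.19, 11.27 and 11.10 on the CD11b arrays. In KO, Psmd14 was 11.15, 11.05 and 11.48 on the CD27 arrays, 11.35, 11.17 and 11.55 on the DP arrays, and 11.04, 11.11 and 11.30 on the CD11b arrays. All 6 groups overlapped, and in each KO group the array of replicate 3 was the highest. Psmd11 was 9.95, 10.05 and 10.01 on the WT CD27 arrays, 10.15, 10.01 and 10.08 on the DP arrays and 9.99, 10.12 and 10.11 on the CD11b arrays. In KO, Psmd11 was 9.94, 9.73 and 10.06 on the CD27 arrays, 10.03, 10.06 and 10.04 on the DP arrays, and 9.92, 10.08 and 10.08 on the CD11b arrays, where the groups overlapped as well. The lid gene with the largest difference from CD27 to CD11b in WT was Psmd6, at 0.42 (limma, adjusted p = 0.103).

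Over all 40 genes, 32 had a difference above 0 from CD27 to CD11b in WT (80%, against 55.9% of all probe sets and 54.2% of the brighter ones). The median difference was 0.09, against 0.02 over all probe sets. The CD11b and CD27 arrays did not overlap for 18 members, 17 of them higher (45% in all, against 28.3% of all probe sets). By role, the median difference was 0.23 over the base ATPases, 0.16 over the other base subunits, 0.14 over the beta ring, 0.12 over the alpha ring, 0.09 over the assembly chaperones and 0.04 over both the lid and the activators.

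**Figure D4:**
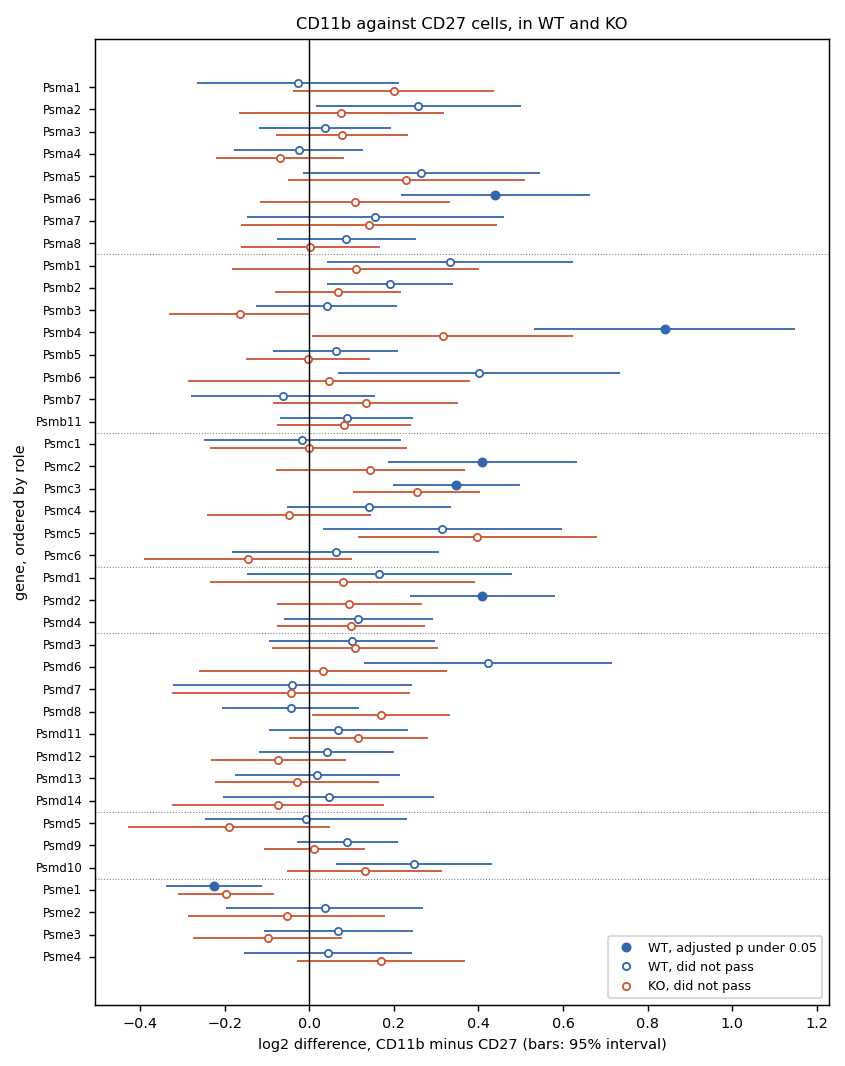
Log2 difference between CD11b and CD27 cells for each of the 40 genes, grouped by role, with 95% intervals from limma's moderated standard error (n = 3 arrays a group); blue is WT, orange is KO, and filled points passed an adjusted p of 0.05. The filled points are Psma6, Psmb4, Psmc2, Psmc3, Psmd2 and Psme1, all in WT.

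Some genes listed as T cell markers moved with this comparison. Of 6 T cell marker genes, 4 fell from CD27 to CD11b in WT (Cd3d, Cd3e, Cd3g and Cd28) and Cd5 and Cd8b1 did not pass. Their mean level was 8.96 to 9.53 on the WT CD27 arrays, 7.92 to 8.07 on the DP arrays and 6.98 to 7.28 on the CD11b arrays. In KO it was 8.30 to 8.38, 7.70 to 8.02 and 7.17 to 7.36. On the WT CD11b arrays Cd3g was still at 9.75 to 10.82 and Cd28 at 10.58 to 10.73. Cd3d was at 5.78 to 6.29 there and Cd3e at 5.37 to 5.55. On the WT CD27 arrays Cd3e was uneven, at 10.49, 11.09 and 8.14. It was at 5.61 to 6.27 on the WT DP arrays and at 6.39 to 7.65 on the KO CD27 arrays. Cd5 and Cd8b1 were below the array medians on all WT arrays. Whether T cells or the sorted NK cells held these transcripts was not tested, nor was their part in the subunit differences. The mean of 29 cell cycle genes was 7.02 to 7.12 on the WT CD27 arrays and 7.21 to 7.26 on the WT CD11b arrays, without overlap. None of these genes passed in this comparison under limma, with 0 at an unadjusted p under 0.05 as well. The fit shared its spread over all 6 groups, KO replicate 3 included, where these genes stood far apart. It therefore cannot decide whether they differ between the WT subsets.

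The number of calls depended on single arrays. It was 3 (Psmb4, Psmc3 and Psmd2) without WT CD27 array 2, WT CD11b array 1 or WT CD11b array 2, where 3.17%, 2.97% and 3.08% of all probe sets passed. With arrays weighted by their spread it was 10, where 10.5% of all probe sets passed. Psmb4 and Psmc3 passed in all 14 alternatives run for this comparison. With 1 array left out at a time, Psmd2 passed in 6 of 6 fits. Psma6 passed in 1 of these 6 fits, and Psmc2 and Psme1 in 2 each.

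In KO, none of the 40 genes passed from CD27 to CD11b under limma, where 2.07% of all probe sets did. At an unadjusted p under 0.05 there were 5 members (12.5%), against 13% of all probe sets. The smallest p-values belonged to Psme1, given above, Psmc3 (0.25 ± 0.07, SE; adjusted p = 0.0897) and Psmc5, a further ATPase (0.40 ± 0.13, SE; adjusted p = 0.170). Psmc5 was 7.25, 7.26 and 7.49 on the KO CD27 arrays and 7.77, 7.61 and 7.82 on the KO CD11b arrays, so the arrays did not overlap. Under a fixed block of the replicate number, Psmc5 passed (adjusted p = 0.0408) and Psme1 and Psmc3 did not (0.0572 and 0.0514), where 6.17% of all probe sets did. As a random block, Psme1 and Psmc3 passed (adjusted p = 0.0333 and 0.0376) and Psmc5 did not (0.0648), where 4.25% did. Of the 40 genes, 26 had a difference above 0 (65%, against 56.2% of all probe sets), and the median was 0.08, against 0.02 over all probe sets. The median rested on single arrays: it was 0.02 without KO CD27 array 2, 0.05 without KO CD27 array 1 or KO CD11b array 3, and 0.10 without KO CD27 array 3. The 6 dendritic cell and MHC class II genes had a median difference of 1.75 in this comparison, none of them passing, and their part in the subunit differences was not tested.

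A call in WT and none in KO does not show that the genotypes differ, so the interaction between genotype and subset was tested as well. No member passed limma's moderated F test, for which 4 of 35399 probe sets did (0.0113%), and the smallest adjusted p was 0.999988. At an unadjusted p under 0.05 there was 1 member, Psmd2 (2.5%, against 4.18% of all probe sets). The estimated Psmd2 difference from CD27 to CD11b was smaller in KO than in WT. The KO minus WT contrast was -0.31, with an unadjusted 95% interval from -0.56 to -0.07. Limma's F test, which takes the contrast for DP cells together with that for CD11b cells, gave Psmd2 an unadjusted p of 0.0343. For Psmb4 the difference was 0.84 in WT and 0.32 in KO, and the interval of the CD11b contrast ran from -0.96 to -0.09. The joint F test of limma gave Psmb4 an unadjusted p of 0.0652. For Psma6 the CD11b contrast was -0.33, from -0.65 to -0.01 (unadjusted p = 0.0898 by the same F test). For Psme1 the contrast was 0.03, from -0.13 to 0.19.

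Between DP and CD11b cells in WT, no member passed under limma (0.525% of all probe sets did), but 12 of the 40 had an unadjusted p under 0.05, all higher in CD11b cells (30%, against 8.36% of all probe sets). The median difference was 0.17, against 0.0005 over all probe sets. Above 0 were 33 genes (82.5%, against 50.2% of all probe sets and 56.9% of the brighter ones). The smallest p-values were those of Psma6 (0.42 ± 0.10, SE; adjusted p = 0.111), Psmb4 (0.52 ± 0.14; adjusted p = 0.179) and Psmc2 (0.36 ± 0.10; adjusted p = 0.210). With the replicate number as a block Psma6 passed (adjusted p = 0.0364), and without WT DP array 1 the genes Psma6, Psmb4 and Psmd6 passed. That array was the DP array on which 29 members were above their means.

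Between CD27 and DP cells in WT, no member passed under limma (0.557% of all probe sets did), and 2 had an unadjusted p under 0.05 (5%, against 8.25%). The smallest p-values were those of Psme1 (-0.17 ± 0.05, SE; adjusted p = 0.245), Psmb4 (0.32 ± 0.14; adjusted p = 0.581) and Psmc3 (0.15 ± 0.07; adjusted p = 0.608). In KO none passed between CD27 and DP cells (0.0198% of all probe sets did), where Psme1 differed by -0.15 (adjusted p = 0.753), Psmd8, a lid subunit, by 0.16 (adjusted p = 0.892) and Psmd11 by 0.13 (adjusted p = 0.945). At an unadjusted p under 0.05 there was 1 member, Psme1 (2.5%, against 5.66%). Between DP and CD11b cells in KO none passed either (0.514% did), with 2 members at an unadjusted p under 0.05 (5%, against 8.12%). Psmc3 differed by 0.21 (adjusted p = 0.331), Psmd4, a ubiquitin receptor of the base, by 0.20 (adjusted p = 0.512) and Psme3, a nuclear activator, by -0.17 (adjusted p = 0.634).

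The effect of Runx3 loss was addressed by comparing KO with WT in each subset and averaged over the subsets. These comparisons share arrays with those above. Averaged over subsets, 3 subunit genes were higher in KO and none lower: Psma1, an alpha ring subunit, 1.18-fold, Psmd10, the base assembly chaperone also called gankyrin, 1.14-fold, and the ATPase gene Psmc3, 1.14-fold. They are 7.5% of the members, a share near the 8.08% of all probe sets that passed, of which 2.8% were higher and 5.28% lower. Among the brighter probe sets 14.2% passed. This averaged fit counts the 3 arrays of a replicate number as separate. With those arrays averaged first, none of the 3 genes passed, where 0.201% of all probe sets did.

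Psma1 was 10.70, 10.57 and 10.59 on the WT CD27 arrays, 10.52, 10.44 and 10.66 on the WT DP arrays and 10.62, 10.52 and 10.64 on the WT CD11b arrays. In KO it was 10.73, 10.61 and 10.96 on the CD27 arrays, 10.59, 10.67 and 10.99 on the DP arrays and 10.98, 10.82 and 11.09 on the CD11b arrays. The genotypes overlapped in CD27 and DP cells and separated in CD11b cells, and the array of KO replicate 3 was the highest of its group in each subset. The averaged difference was 0.24 ± 0.06 (SE, 9 arrays a genotype; limma adjusted p = 0.0314). Without the 3 arrays of KO replicate 3 it was 0.15 (adjusted p = 0.0902).

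Psmd10 was 10.03, 9.96 and 9.93 on the WT CD27 arrays, 10.20, 9.91 and 9.93 on the WT DP arrays and 10.23, 10.28 and 10.14 on the WT CD11b arrays. In KO, Psmd10 was 10.33, 10.15 and 10.08 on the CD27 arrays, 10.30, 10.30 and 10.20 on the DP arrays and 10.39, 10.34 and 10.22 on the CD11b arrays. The genotypes separated in CD27 cells, and a single pair of arrays overlapped narrowly in DP cells. The averaged difference was 0.19 ± 0.05 (SE; limma adjusted p = 0.0304), and without KO replicate 3 it was 0.24 (adjusted p = 0.0223). Psmc3 differed by 0.19 ± 0.04 (SE; adjusted p = 0.0113), and by 0.15 without KO replicate 3 (adjusted p = 0.0577). Its KO and WT arrays did not overlap within any subset.

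Over the 40 genes, 32 were above 0 in the averaged comparison (80%, against 42.6% of all probe sets and 36.6% of the brighter ones), with a median of 0.08 against -0.02 over all probe sets. At an unadjusted p under 0.05 there were 15 members, 14 of them higher (37.5% in all, against 20.8%). Psmd5, a base assembly chaperone, was the exception, at -0.20 (limma, adjusted p = 0.0675). The count of calls was 1 without the arrays of KO replicate 3 (Psmd10), where 6.31% of all probe sets passed. It was 0 when the 3 arrays of each replicate number were averaged before testing 3 against 3 by limma, where the share over all probe sets fell to 0.201%. It was 1 (Psmc3) without WT CD27 array 2 or 3, WT DP array 2, WT CD11b array 3 or KO CD11b array 1, where 5.67% to 6.92% of all probe sets passed, and 9 without WT DP array 1, where 8.15% did. The cell cycle genes moved with the genotype: 17 of 29 were called higher in KO, with a median difference of 1.92, against 2.8% of all probe sets called higher. Leaving out KO replicate 3 lowered that median to 1.10, with 21 genes called higher and 2 lower. Their part in the subunit differences was not tested.

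**Figure D5:**
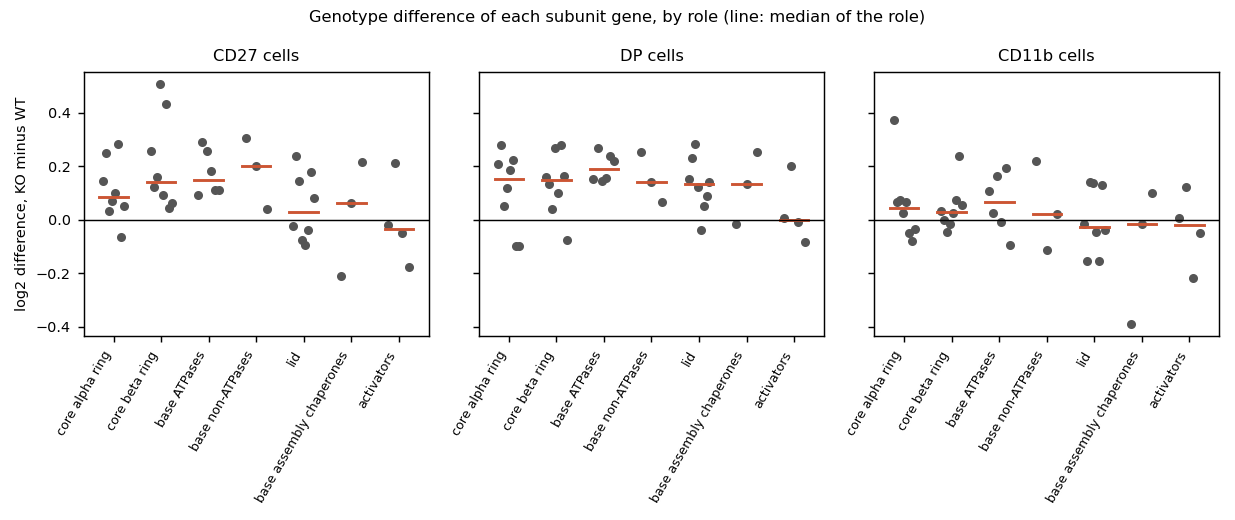
Log2 difference between KO and WT for each of the 40 genes in CD27, DP and CD11b cells, by role; points are genes and the orange line is the median of the role. The medians of the ATPases are 0.15, 0.19 and 0.07 in the 3 subsets, those of the activators -0.03, -0.0001 and -0.02.

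In CD27 cells no member passed between KO and WT under limma, where 0.907% of all probe sets did. At an unadjusted p under 0.05 there were 8 members, all higher in KO (20%, against 11.6%), and 31 were above 0 (77.5%, against 46.6% of all probe sets and 38.8% of the brighter ones). For 13 members (32.5%) each KO array was above each WT array, against 5.66% of all probe sets. The smallest p-values were those of Psmc3 (0.26 ± 0.07, SE; adjusted p = 0.123), Psmb4 (0.51 ± 0.14; adjusted p = 0.142) and Psmc2 (0.29 ± 0.10; adjusted p = 0.266). The median over the 40 genes was 0.11, against -0.01 over all probe sets, and 0.05 without KO replicate 3. In these cells 2 of the 6 T cell marker genes, Cd3d and Cd3e, were lower in KO, and their part in the differences was not tested.

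In DP cells the members' median was 0.14, against -0.02 over all probe sets, and 33 of 40 were above 0 (82.5%, against 42.6%). None passed under limma (0.395% of all probe sets did), and 6 had an unadjusted p under 0.05, all higher (15%, against 9.64%). The smallest p-values were those of Psmd10 (0.25 ± 0.09, SE; adjusted p = 0.323), Psmc2 (0.27 ± 0.10; adjusted p = 0.414) and Psma2, an alpha ring subunit (0.28 ± 0.11; adjusted p = 0.439). The KO and WT arrays overlapped for all 3 of these genes, with WT DP array 1 within or just above the lowest KO array in each.

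In CD11b cells the members' median was 0.02, against -0.01 over all probe sets, and 22 of 40 were above 0 (55%, against 46%). None passed under limma (1.29% of all probe sets did), and 5 had an unadjusted p under 0.05 (12.5%, against 13%). The smallest p-values were those of Psmd5 (-0.39 ± 0.11, SE; adjusted p = 0.120), Psma1 (0.37 ± 0.11; adjusted p = 0.137) and Psme3 (-0.22 ± 0.08; adjusted p = 0.266). Psmd5 was 9.61, 9.93 and 9.68 on the WT CD11b arrays and 9.09, 9.56 and 9.40 on the KO CD11b arrays, without overlap. Of the 6 dendritic cell and MHC class II genes none passed in these cells under limma, but 5 had an unadjusted p under 0.05, all higher in KO. Their median difference was 2.13, and 0.55 without KO replicate 3, and their part in the subunit differences was not tested. By role, all 6 ATPases and all 8 beta ring genes were above 0 in the CD27 comparison. The counts were 6 and 7 in the DP comparison, and 4 and 5 in that of CD11b cells. Of all probe sets, 46.6%, 42.6% and 46% were above 0 in these comparisons. The beta ring counts include Psmb11, which stayed below every array's median. In the CD27 comparison Psmd1, Psmd2 and Psmd4 of the base and every alpha ring gene but Psma7 were above 0 as well.

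Other genes of the pathway were counted apart. Of the 3 immunoproteasome subunit genes, Psmb9 was higher in KO in the averaged comparison, 1.28-fold (95% interval 1.12 to 1.46; limma adjusted p = 0.0283). Psmb8 differed by 0.26 (adjusted p = 0.0972) and Psmb10 by 0.04 (adjusted p = 0.738), and none of the 3 passed from CD27 to CD11b in either genotype. Of 33 further genes for proteasome assembly, ubiquitin receptors, ubiquitin and the Nfe2l1 pathway, 24 had a probe set of their own. From CD27 to CD11b in WT 2 of the 24 rose (8.33%, against 5% of all probe sets passing): Zfand5, which stimulates the proteasome, 1.67-fold (adjusted p = 0.000177), and Nploc4, a cofactor of the segregase encoded by Vcp, 1.20-fold (adjusted p = 0.00530). In KO 3 rose (12.5%, against 2.07%): Zfand5 1.47-fold, Nploc4 1.17-fold and Vcp 1.26-fold (adjusted p = 0.00313, 0.0228 and 0.0413 by limma). Without KO replicate 3, Zfand5 still passed (adjusted p = 0.0101), while Nploc4 and Vcp did not (0.164 and 0.109). Between KO and WT, averaged, 2 were lower in KO (8.33%, a share near the 8.08% of all probe sets): the ubiquitin receptor Ubqln2, 1.14-fold, and the proteasome-bound ligase Ube3c, 1.13-fold (adjusted p = 0.0215 and 0.00741). The averaged fit counts the 3 arrays of a replicate number as separate. With those arrays averaged first, Psmb9, Ubqln2 and Ube3c did not pass (adjusted p = 0.323, 0.324 and 0.238 by limma). Without KO replicate 3, Psmb9 did not pass (0.123), whereas Ubqln2 and Ube3c did (0.00652 and 0.0305). After cyclic loess Psmb9 passed (0.0145), and Ubqln2 and Ube3c did not (0.299 and 0.0759).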

How the data were processed

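Per the labels, RNA of sorted cells was measured on 18 arrays; per the submitters' processing notes, the tools were RMA and Partek. The authors deposited RMA values, judged to be on the log2 scale from their range; they were used as deposited, without a filter. Array background and probe-level precision were not analysed here; the number of arrays limits the precision. The gene set, role and marker lists and motifs were chosen with earlier results of these data known. Named are, per comparison, up to 10 passing members with the largest differences, or the 3 with the smallest p where none passed; Psmc5 and Psmd5 array values, Psmd6, the non-passing Psmb6 statistics and the Psmd5 average were added after their values were seen.

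With limma 3.58.1 (R 4.3.3), a linear model with a mean for each group used all 18 arrays, with 12 residual degrees of freedom and eBayes moderation. Two-sided p-values received Benjamini-Hochberg adjustment across the 35399 probe sets, of which 21789 have 1 symbol, 1621 several and 11989 are not listed in the annotation. An exact permutation of 3 against 3 arrays cannot go below p = 0.1, so limma was used throughout. The procedure was run on simulated data with independent arrays, which does not test it for arrays that correlate as described next. Deviations from group means correlated between same-numbered arrays at 0.21 to 0.64 within KO. For WT CD11b arrays with CD27 or DP arrays the range was 0.22 to 0.46, and these numbers were taken to pair the arrays. Differently numbered KO arrays also correlated, at 0.29 for DP array 1 with CD11b array 2. For CD27 array 1 the values were 0.27 with DP array 2 and 0.24 with CD11b array 2. Deviations within a group of 3 are tied to each other, and KO replicate 3 stood apart. These correlations therefore cannot tell whether KO numbers 1 and 2 pair. WT CD27 with DP (-0.0094 to 0.44) and WT with KO arrays (-0.07 to 0.34) did not pair. Alternatives were cyclic loess, brighter probe sets only, a robust variance prior with an intensity trend (statmod 1.5.0), array weights, the compared groups alone, the replicate block, fixed or random, and arrays left out.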

Additional observations from a re-analysis of the deposited data

How the results depend on the processing

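No median of the 40 genes reversed in a called comparison, and the counts in DP against CD27 cells and in KO against WT DP cells were 0 under every alternative run. The percentages that follow give the share of all probe sets that passed under the same setting. With array weights the counts of members that passed were 6 (KO against WT, CD27; 11.2%), 9 (averaged; 11.9%), 1 (CD11b against DP, WT; 1.11%), 10 (CD11b against CD27, WT; 10.5%) and 3 (CD11b against CD27, KO; 6.3%). KO CD27 array 1 had a weight of 6.24 and KO CD27 arrays 2 and 3 had 0.488 and 0.372. The weighted results for KO CD27 cells therefore rest mainly on 1 array. With a fixed replicate block the counts were 1 for CD11b against DP in WT (2.4%) and 1 for CD11b against CD27 in KO (6.17%). The numbers did not pair WT with KO arrays, so the block has no such basis for KO against WT, where it gave 1 in CD11b cells (Psma1, adjusted p = 0.0325 by limma; 2.27%) and 7 averaged (10.8%). It moved no other count of calls by over 1.5 times. As a random block (correlation 0.206) they were 1 averaged (4.48%), 1 for CD11b against DP in WT (1.38%) and 2 for CD11b against CD27 in KO (4.25%). For the averaged comparison, 8 passed after cyclic loess (7.06%), 5 among brighter probe sets (17.7%), 1 without KO replicate 3 (6.31%) and 0 with the arrays of a sample averaged (0.201%). With the compared groups alone, 3 passed for CD11b against CD27 in WT (5.32%). Cyclic loess gave medians of 0.18 (KO against WT, CD27) and 0.0908 (KO against WT, CD11b). Leaving out 1 array at a time gave 3 to 6 calls for CD11b against CD27 in WT, 0 to 3 for CD11b against DP in WT, 1 to 9 averaged and 0 to 1 for KO against WT in CD11b cells, where the median ran from -0.01 to 0.06. The cause of these changes was not tested beyond the fewer arrays or probe sets in a fit. The settings for marker and pathway genes were added after seeing the data; with 1 array left out at a time, Psmb9 passed in 9 of 18 fits, and in KO Nploc4 passed in 2 and Vcp in 1 of 6.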
